A study of Homo sapiens with 27 samples.

Results

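The kinetochore, spindle checkpoint and condensin genes described here are 60 genes of mitosis, listed by symbol for their roles. They were chosen with earlier results of these data known, so their counts describe the list and are not an independent test. For each gene the probe set annotated to that gene symbol alone and with the highest mean over the 27 arrays was used. Of the 60 genes, 59 had such a probe set and all 59 passed the filter on dim probe sets, among 12386 genes tested in all. PTTG1, which encodes securin, was measured only by a probe set that also names another gene and has no value here. The arrays hold EBC-1, MKN-45 and HCC827 cells, established human carcinoma lines. EBC-1 comes from a lung squamous carcinoma and MKN-45 from a gastric carcinoma, and the submitters describe both as depending on MET, the receptor of hepatocyte growth factor. HCC827, from a lung adenocarcinoma, was their negative control: c-Met is active in it but it does not depend on it. Each line was given 1 uM SGX-523, which selectively inhibits the kinase activity of MET, for 24 h or for 48 h, or DMSO, the solvent. Each of the 9 groups has 3 biological replicates, and the labels give no time for DMSO and no untreated cells. All values are log2 signals of a 1-colour expression array, so a log2 change of -1 is a halving of signal, and values of a gene are set only against other values of the same probe set.

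Chromosomes are held to the spindle by kinetochores, protein assemblies built on centromeres that carry the histone CENPA. Unattached kinetochores make the spindle checkpoint signal, which holds back CDC20 and the anaphase-promoting complex, while condensins and TOP2A fold and untangle the chromosomes and CDK1 with its cyclins drives entry into mitosis. Most of these genes are transcribed late in the cell cycle, and their messages are known to be low in cells that have left the cycle. The promoters of many carry CCAAT boxes and a short element called CHR, which are bound by complexes containing the factors NF-Y, the MuvB core, MYBL2 and FOXM1.

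Nearly all of these genes fell in the MET-dependent lines and in HCC827 few were called and all changes were small. In EBC-1, 58 of 59 fell at 24 h and 58 at 48 h, and the remaining gene, CDC25B, rose at both times. In MKN-45 all 59 fell at both times. In HCC827 none was called at 24 h, and 8 fell and 4 rose at 48 h, none by as much as 1 log2 unit. In bulk RNA, fewer cells in mitosis and less of each message per cell cannot be told apart. A gene is called changed where the limma test fitted across all genes gave a Benjamini-Hochberg adjusted p under 0.05. Among all 12386 genes, 28.1% fell and 31.2% rose in EBC-1 at 24 h, and 28.9% fell and 32.8% rose at 48 h. In MKN-45, 26.9% fell and 33.4% rose at 24 h, and 26.2% fell and 36.4% rose at 48 h. In HCC827, 0% fell and 0.0323% rose at 24 h, and 10.7% fell and 11.6% rose at 48 h. The median log2 change of the 59 genes was -2.93 at 24 h and -3.66 at 48 h in EBC-1, where the median of all genes was 0.036 and 0.067. In MKN-45 it was -2.73 at 24 h and -3.33 at 48 h, beside 0.051 and 0.056 for all genes, and in HCC827 it was -0.086 and -0.074. The median gene kept 13.1% of its DMSO signal at 24 h and 7.92% at 48 h in EBC-1, and 15.1% and 9.93% in MKN-45. Among the falls of the MET-dependent lines the largest adjusted p was that of INCENP each time, between 9.99e-05 in MKN-45 at 48 h and 0.0316 in EBC-1 at 48 h. The 3 SGX-523 arrays lay below all 3 DMSO arrays for 58 genes in EBC-1 at each time and for 59 in MKN-45. Among all genes that held for 33% and 33.3% in EBC-1 at 24 h and 48 h, and for 31.1% and 30.6% in MKN-45. In HCC827, 10 of the 59 genes lay wholly below DMSO and 1 wholly above at 24 h, where 6.44% and 5.87% of all genes did, and 29 lay below and 10 above at 48 h, where 26.2% and 25.1% did.

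**Figure D1:**
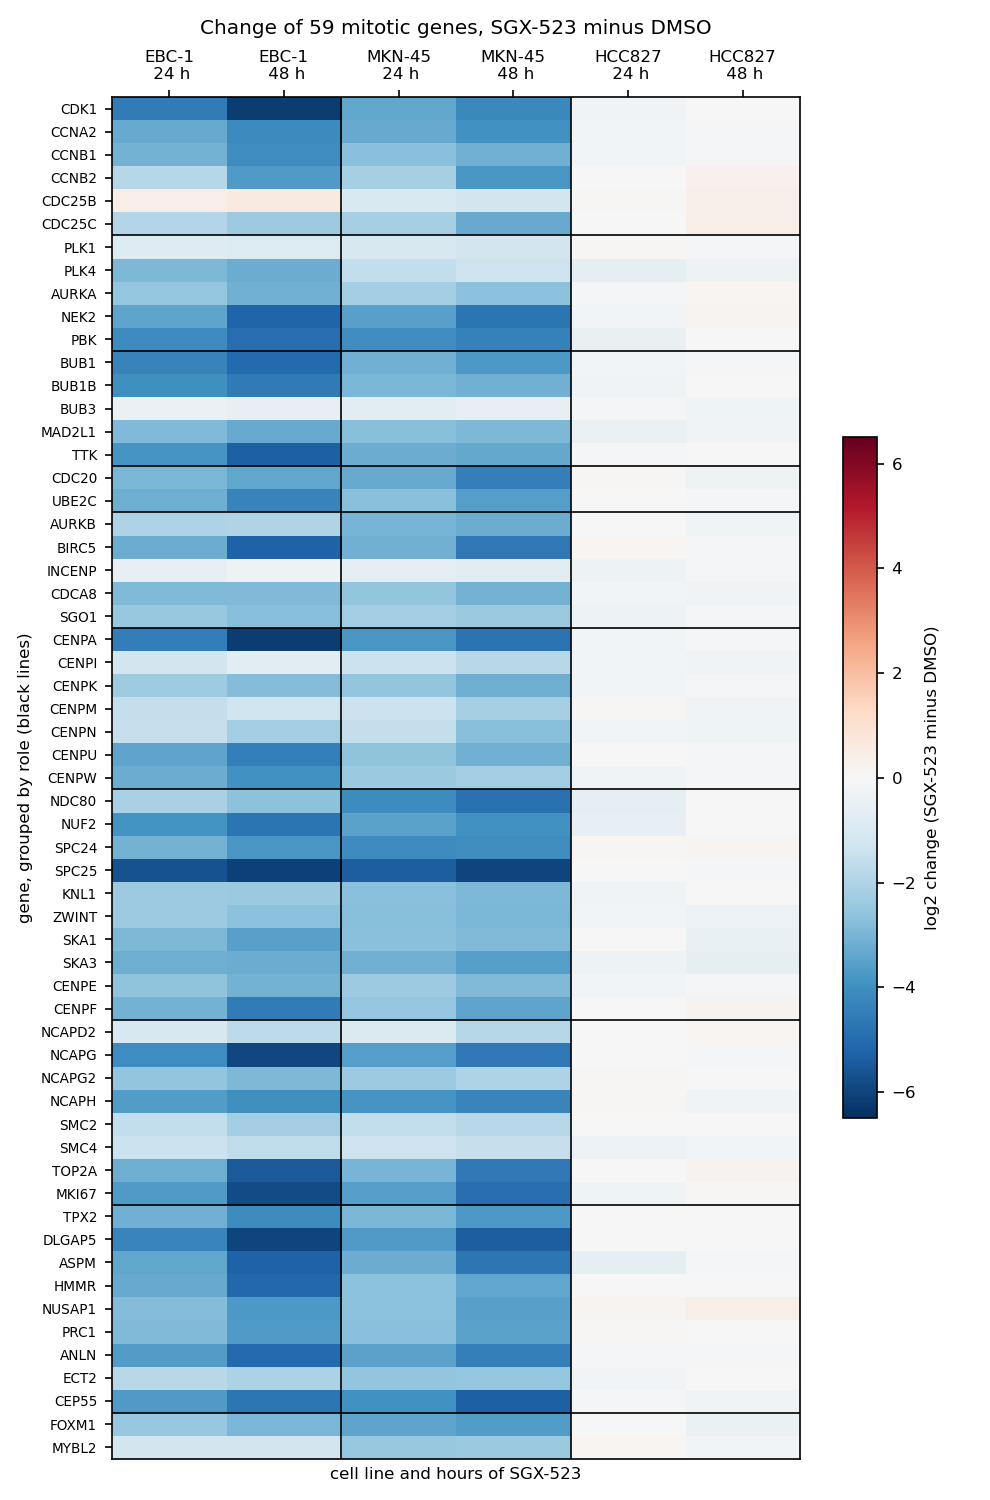
Log2 change of the 59 genes (rows, grouped by role from cyclins at the top to transcription factors at the bottom) for SGX-523 minus DMSO at 24 h and 48 h in EBC-1, MKN-45 and HCC827 (columns); blue is lower and red is higher with SGX-523, and each cell is a difference of means of 3 arrays. The EBC-1 and MKN-45 columns are blue in every row but CDC25B in EBC-1, palest at BUB3 and INCENP, while the HCC827 columns stay between -0.63 and 0.39.

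To show the elements named above, the window from 250 bases before to 50 bases after the annotated start was read from RefSeq for build GRCh38.p14, which held 49 of the 60 genes. CHR was searched as TTTGAA or TTCGAA and CCAAT by those letters, on both strands, and a match of one shared letters with a match of the other in 2 of the 49 windows. Capitals mark both motifs in the windows below, 4 that hold the CHR letters searched and 2, CCNB1 and MYBL2, that do not. No other letters were searched for CHR, so a window without a match may still hold the element. SPC25 is shown because it had the lowest change at 24 h in both MET-dependent lines, and CENPA because it had the lowest in EBC-1 at 48 h. PLK1 is shown because its measured fall, from a dim signal, was small, and CCNB2 because it was among the deepest further falls after 24 h.
CCNB2 (chr15:59104896-59105195, + strand): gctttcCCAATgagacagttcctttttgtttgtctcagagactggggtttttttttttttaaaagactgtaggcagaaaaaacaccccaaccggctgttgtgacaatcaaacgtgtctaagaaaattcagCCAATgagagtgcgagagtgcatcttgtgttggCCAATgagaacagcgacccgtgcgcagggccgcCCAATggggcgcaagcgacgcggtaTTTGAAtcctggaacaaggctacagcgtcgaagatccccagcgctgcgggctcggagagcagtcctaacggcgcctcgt
CENPA (chr2:26785806-26786105, + strand): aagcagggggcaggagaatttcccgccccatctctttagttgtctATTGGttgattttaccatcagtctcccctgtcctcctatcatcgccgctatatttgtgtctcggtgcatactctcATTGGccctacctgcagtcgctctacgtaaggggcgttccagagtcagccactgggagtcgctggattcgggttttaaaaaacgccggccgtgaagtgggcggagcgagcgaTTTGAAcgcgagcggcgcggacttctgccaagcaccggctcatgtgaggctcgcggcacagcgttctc
SPC25 (chr2:168890381-168890680, - strand): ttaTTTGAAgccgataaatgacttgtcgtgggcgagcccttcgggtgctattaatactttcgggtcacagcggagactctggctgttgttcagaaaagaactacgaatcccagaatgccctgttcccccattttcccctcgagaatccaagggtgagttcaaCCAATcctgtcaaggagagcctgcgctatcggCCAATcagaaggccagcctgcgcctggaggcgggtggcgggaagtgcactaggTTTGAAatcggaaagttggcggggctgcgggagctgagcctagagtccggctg
PLK1 (chr16:23678639-23678938, + strand): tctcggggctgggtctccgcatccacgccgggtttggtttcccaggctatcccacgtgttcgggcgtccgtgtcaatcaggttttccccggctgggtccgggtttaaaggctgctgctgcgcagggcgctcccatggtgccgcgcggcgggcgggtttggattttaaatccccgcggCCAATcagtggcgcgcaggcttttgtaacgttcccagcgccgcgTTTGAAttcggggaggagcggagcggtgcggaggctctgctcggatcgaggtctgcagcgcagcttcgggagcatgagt
CCNB1 (chr5:69166900-69167199, + strand): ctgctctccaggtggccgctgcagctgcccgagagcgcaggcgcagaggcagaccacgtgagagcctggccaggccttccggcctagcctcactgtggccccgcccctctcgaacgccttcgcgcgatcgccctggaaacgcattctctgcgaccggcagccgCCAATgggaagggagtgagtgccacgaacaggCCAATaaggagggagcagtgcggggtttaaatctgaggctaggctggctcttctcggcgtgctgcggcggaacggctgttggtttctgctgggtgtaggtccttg
MYBL2 (chr20:43666864-43667163, + strand): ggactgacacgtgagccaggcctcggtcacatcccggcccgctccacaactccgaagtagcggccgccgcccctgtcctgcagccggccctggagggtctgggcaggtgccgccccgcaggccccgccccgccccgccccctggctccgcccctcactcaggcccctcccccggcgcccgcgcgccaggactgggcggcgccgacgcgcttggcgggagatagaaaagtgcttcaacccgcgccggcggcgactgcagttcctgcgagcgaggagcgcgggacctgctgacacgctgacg

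CHR was present in 38 of the 49 windows (77.6%), in 15.4% of the 10074 other tested genes with a window and in 19.5% of all 27305 genes in the table. CHR beginning no more than 50 bases before the start, or after it, was present in 33 (67.3%), against 4.57% of the other tested genes and 6.24% of all genes. In CCNB2 and PLK1 it began at position -29 from the start and in CENPA at -18. CCAAT was present in 36 windows (73.5%), against 43.0% of the other tested genes, and 28 windows (57.1%) held both, against 8.41%. CCNB2 held 4 copies of CCAAT, and MYBL2 held neither motif. A further search, for the E2F letters TTTGGCGC, TTTCGCGC, TTTCCCGC or TTTGCCGC, matched 4 windows (8.16%), against 6.47%. No other letters were searched for E2F, so a window without a match may still hold such a site. These are matches of letters, and no binding was measured here.

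Some features of the arrays touch the values below. The median signal of an HCC827 array was between 5.71 and 5.73 and that of the other 18 arrays between 5.02 and 5.14, so levels are not set across HCC827 and the other lines. One array, HCC827 SGX-523 24 h replicate 3, stood apart, with a residual SD of 0.367 where the other 26 arrays had 0.0792 to 0.199. Its 3' to 5' log2 ratio of ACTB, a measure of RNA integrity, was 3.4, where the other 8 HCC827 arrays had 2 to 2.44. The same ratio of GAPDH was 0.161 on that array, within the 0.113 to 0.179 of the other HCC827 arrays. The ACTB ratio was also higher with SGX-523 in the MET-dependent lines. In EBC-1 it was 3.75 to 3.77 at 24 h and 3.76 to 4 at 48 h, against 3.28 to 3.53 with DMSO. In MKN-45 it was 3.66 to 3.7 and 4.02 to 4.27, against 3.47 to 3.63. The GAPDH ratio at 24 h overlapped with DMSO in both lines. It was 0.383 to 0.392 against 0.345 to 0.384 in EBC-1, and 0.338 to 0.455 against 0.287 to 0.389 in MKN-45. At 48 h the GAPDH ratio was higher, 0.431 to 0.466 in EBC-1 and 0.507 to 0.651 in MKN-45. The 42 external control probe sets, for RNA not made by the cells, were higher with SGX-523 by a median of 0.32 and 0.39 in EBC-1 and 0.30 and 0.27 in MKN-45. Centring arrays on them moves the median of all genes to -0.28 and -0.33 in EBC-1 and to -0.25 and -0.21 in MKN-45, so changes from DMSO in these lines are lower on that scale. Of 8 epithelial markers, 7 were above the array median on all 27 arrays, the exception being CDH1, which averaged 3.20 in EBC-1 with DMSO. Of 8 fibroblast markers 2 passed the filter and of 8 leukocyte markers 3 did, and LUM averaged 12.06 in EBC-1 with SGX-523 for 48 h, against 10.04 with DMSO. The part of RNA integrity, of total RNA and of these markers in the changes was not tested.

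Of CDK1, its cyclins and the CDC25 phosphatases that activate it, 5 of 6 fell in EBC-1 and all 6 in MKN-45. CDK1, the kinase that starts mitosis, had 6.13, 6.05 and 6.03 at 24 h and 4.25, 4.69 and 4.41 at 48 h, against 10.57, 10.60 and 10.64 with DMSO in EBC-1. The MKN-45 arrays of CDK1 gave 7.97, 7.89 and 8.05 at 24 h and 7.06, 7.25 and 7.20 at 48 h, against 11.35, 11.30 and 11.40 with DMSO. The treated arrays of both lines lay far below DMSO, with log2 changes of -4.53 ± 0.12 at 24 h and -6.15 ± 0.12 at 48 h in EBC-1 (SE) and of -3.38 ± 0.12 and -4.18 ± 0.12 in MKN-45. CCNB1, the main mitotic cyclin, had 7.63, 7.67 and 7.57 at 24 h and 6.43, 6.88 and 6.74 at 48 h, against 10.68, 10.76 and 10.69 with DMSO in EBC-1, changes of -3.09 and -4.03. In MKN-45 it changed by -2.69 and -3.11. CCNB2, a related B-type cyclin, changed by -1.87 and -3.66 in EBC-1 and by -2.17 and -3.81 in MKN-45, with a large part of the fall coming after 24 h. CCNA2, the cyclin of S phase and early mitosis, changed by between -4.16 and -3.28 over the 4 comparisons, and CDC25C, which acts at mitotic entry, by between -3.29 and -1.90.

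CDC25B, the phosphatase thought to act first on CDK1 at the centrosome, went the other way in EBC-1. It had 10.34, 10.38 and 10.37 at 24 h and 10.53, 10.46 and 10.53 at 48 h, against 9.90, 9.84 and 10.01 with DMSO in EBC-1, a change of 0.44 ± 0.13 at 24 h with an adjusted p of 0.00615 and 0.59 ± 0.13 at 48 h with 0.00046. In MKN-45 it had 5.14, 5.38 and 4.97 at 24 h and 5.08, 4.63 and 5.31 at 48 h, against 6.11, 6.36 and 6.06 with DMSO, changes of -1.02 ± 0.13 and -1.17 ± 0.13. The groups did not overlap in either line, and with DMSO the signal in EBC-1 was 3.74 log2 units above that in MKN-45. The rise in EBC-1 is on the scale of the deposited values: with arrays centred on external controls it is 0.13 at 24 h and 0.20 at 48 h, with adjusted p of 0.422 and 0.209. Of the 5 probe sets of CDC25B that passed the filter, all had values above 0 in EBC-1 at both times, and the one with the highest signal was the only one called at 24 h.

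All 5 mitotic kinases outside the CDK family fell in both lines, over a wide range. AURKA, which builds spindle poles, had 7.96, 7.88 and 7.82 at 24 h and 7.09, 7.45 and 7.28 at 48 h, against 10.40, 10.43 and 10.41 with DMSO in EBC-1, changes of -2.53 and -3.14, and it changed by -2.21 and -2.65 in MKN-45. NEK2, a centrosome kinase, had changes of -3.40 and -5.20 in EBC-1 and of -3.51 and -4.76 in MKN-45. PBK, a kinase active in mitosis, had changes of -4.08 and -4.95 in EBC-1 and of -4.03 and -4.39 in MKN-45. PLK1, which acts at centrosomes, kinetochores and the midbody, moved least of the 5, at 5.20, 5.24 and 5.0 at 24 h and 5.21, 4.92 and 5.07 at 48 h, against 5.92, 6.01 and 6.0 with DMSO in EBC-1. Its arrays did not overlap between SGX-523 and DMSO. The changes of PLK1 were -0.83 ± 0.11 and -0.91 ± 0.11 in EBC-1 and -1.02 ± 0.11 and -1.19 ± 0.11 in MKN-45, near 1 log2 unit. With DMSO in EBC-1 the array medians were 5.02 to 5.04, so PLK1 was dim before treatment. In each line 1 of its arrays at 24 h and 2 at 48 h were under the array median. Low signal can limit how large a fall is seen, and its part in the small changes of PLK1 was not tested. PLK4, which licenses the copying of centrioles, changed by -2.90 ± 0.24 and -3.23 ± 0.24 in EBC-1 and by less, -1.60 ± 0.24 and -1.33 ± 0.24, in MKN-45.

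The 5 spindle checkpoint genes fell in both lines, 4 of them by more than 2 log2 units and BUB3 by less than 1. BUB1, the kinase that recruits other checkpoint proteins to the kinetochore, had 4.37, 4.23 and 4.27 at 24 h and 3.35, 3.92 and 3.54 at 48 h, against 8.57, 8.66 and 8.67 with DMSO in EBC-1. For BUB1 in MKN-45 the values were 6.05, 6.16 and 6.28 at 24 h and 5.56, 5.47 and 5.77 at 48 h, against 9.33, 9.30 and 9.30 with DMSO. The treated levels sat lower in EBC-1, with changes of -4.34 ± 0.12 and -5.03 ± 0.12 there and -3.14 ± 0.12 and -3.71 ± 0.12 in MKN-45. BUB1B, which encodes the checkpoint protein BUBR1, changed by -3.98 and -4.61 in EBC-1 and by -3.0 and -3.11 in MKN-45. TTK, the kinase also called MPS1 that starts the signal, changed by -3.82 and -5.28 in EBC-1 and by -3.22 and -3.33 in MKN-45. MAD2L1, whose protein binds CDC20, changed by between -3.25 and -2.75 over the 4 comparisons.

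BUB3, the adaptor of BUB1 and BUBR1 that also has roles outside mitosis, had 10.41, 10.42 and 10.43 at 24 h and 10.25, 10.35 and 10.32 at 48 h, against 10.83, 10.84 and 10.86 with DMSO in EBC-1. In MKN-45 it had 10.18, 10.22 and 10.05 at 24 h and 10.26, 10.27 and 10.30 at 48 h, against 10.84, 10.81 and 10.85 with DMSO. The arrays of each group agreed closely, and changes of -0.43 ± 0.049 and -0.54 ± 0.049 in EBC-1 and -0.68 ± 0.049 and -0.56 ± 0.049 in MKN-45 were called. In EBC-1, CDC25B, INCENP and PLK1 also changed by less than 1 log2 unit at both times.

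Both measured partners of the anaphase-promoting complex fell. CDC20, the activator that the checkpoint restrains, had 6.15, 6.10 and 6.13 at 24 h and 5.02, 5.09 and 4.79 at 48 h, against 9.42, 9.40 and 9.37 with DMSO in MKN-45, changes of -3.27 ± 0.11 and -4.42 ± 0.11. In EBC-1 it changed by -2.96 ± 0.11 and -3.37 ± 0.11. UBE2C, the ubiquitin-conjugating enzyme of the complex, had 7.83, 7.82 and 7.87 at 24 h and 6.64, 6.84 and 6.53 at 48 h, against 10.98, 11.06 and 11.05 with DMSO in EBC-1 and changed by -3.19 and -4.36 there, beside -2.69 and -3.59 in MKN-45.

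The chromosomal passenger complex corrects faulty attachments, and its 4 subunits fell over a wide range. BIRC5, or survivin, had 7.30, 6.93 and 6.84 at 24 h and 4.63, 5.38 and 5.05 at 48 h, against 10.28, 10.29 and 10.23 with DMSO in EBC-1, changes of -3.24 ± 0.14 and -5.25 ± 0.14, and it changed by -3.11 ± 0.14 and -4.66 ± 0.14 in MKN-45. AURKB, the kinase of the complex, changed by -2.02 ± 0.15 and -1.93 ± 0.15 in EBC-1 and by -3.04 ± 0.15 and -3.25 ± 0.15 in MKN-45. CDCA8, or borealin, changed by -2.87 and -2.86 in EBC-1 and by -2.55 and -3.09 in MKN-45. INCENP, the scaffold, had 5.54, 5.56 and 5.49 at 24 h and 5.71, 5.75 and 5.64 at 48 h, against 5.98, 5.99 and 6.17 with DMSO in EBC-1, small changes of -0.51 ± 0.14 and -0.35 ± 0.14 with no overlap of the groups. Its call at 48 h in EBC-1 was lost when any of 3 single arrays was left out. INCENP was dim already with DMSO in EBC-1, where the array medians were 5.02 to 5.04. The part of low signal in its small changes was not tested. SGO1, which protects centromeric cohesin, changed by between -2.76 and -2.26 over the 4 comparisons.

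All 7 genes of the centromere histone and the inner kinetochore fell in both lines. CENPA had 4.90, 4.92 and 4.99 at 24 h and 3.13, 3.31 and 3.24 at 48 h, against 9.40, 9.35 and 9.48 with DMSO in EBC-1. In MKN-45 it had 4.43, 4.85 and 5.24 at 24 h and 4.02, 3.95 and 3.49 at 48 h, against 8.59, 8.61 and 8.66 with DMSO. Its changes of -4.47 ± 0.14 and -6.18 ± 0.14 in EBC-1 and -3.78 ± 0.14 and -4.80 ± 0.14 in MKN-45 were the largest of the group. CENPN, which binds the CENPA nucleosome, had 8.75, 8.66 and 8.62 at 24 h and 7.89, 7.91 and 7.91 at 48 h, against 10.20, 10.16 and 10.12 with DMSO in EBC-1 and changed by -1.48 and -2.26 there and by -1.54 and -2.75 in MKN-45. CENPU and CENPK, subunits of the constitutive centromere network, changed by -3.43 and -2.29 at 24 h in EBC-1 and by -2.61 and -2.58 in MKN-45. CENPW, a histone-fold subunit, changed by -3.24 and -3.92 in EBC-1 and by -2.39 and -2.27 in MKN-45. CENPM changed by -1.54 and -1.32 in EBC-1. CENPI, of the same subcomplex as CENPM, changed least there and had 3.29, 3.35 and 3.56 at 24 h and 3.90, 3.77 and 3.94 at 48 h, against 4.53, 4.72 and 4.55 with DMSO, all of them below the array median. Its changes were -1.20 ± 0.16 and -0.73 ± 0.16 in EBC-1 and -1.40 ± 0.16 and -1.79 ± 0.16 in MKN-45.

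The outer kinetochore binds microtubules, and all 10 of its genes fell by more than 2 log2 units in every comparison of the MET-dependent lines with DMSO. SPC25, a subunit of the NDC80 complex, had 2.73, 2.98 and 3.29 at 24 h and 2.51, 2.61 and 2.67 at 48 h, against 8.68, 8.62 and 8.63 with DMSO in EBC-1. MKN-45 cells had 3.92, 3.58 and 3.66 at 24 h and 3.03, 3.08 and 3.31 at 48 h, against 9.12, 9.08 and 9.07 with DMSO. These were changes of -5.64 ± 0.12 and -6.05 ± 0.12 in EBC-1 and -5.37 ± 0.12 and -5.95 ± 0.12 in MKN-45, to 2.0% and 2.42% of the DMSO signal at 24 h, and all treated arrays of both lines were below the array median. Of the other subunits of that complex, NDC80 changed by -2.12 ± 0.26 and -2.65 ± 0.26 in EBC-1 and by -4.07 ± 0.26 and -4.85 ± 0.26 in MKN-45. NUF2, the partner of NDC80 in the complex, changed by -3.86 and -4.75 in EBC-1 and by -3.50 and -3.92 in MKN-45. SPC24, the partner of SPC25, changed by -3.05 and -3.79 in EBC-1 and by -4.09 and -4.02 in MKN-45.

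ZWINT, which links KNL1 to the checkpoint machinery, had 8.92, 8.83 and 8.76 at 24 h and 8.57, 8.54 and 8.56 at 48 h, against 11.15, 11.21 and 11.23 with DMSO in EBC-1, changes of -2.36 and -2.64. KNL1, the scaffold for BUB1, had 6.48, 6.48 and 6.59 at 24 h and 6.52, 6.42 and 6.38 at 48 h, against 8.86, 8.92 and 8.81 with DMSO, changes of -2.35 and -2.43, the smallest mean change of the group. SKA1 and SKA3, subunits of the complex that tracks microtubule ends, changed by -2.93 and -3.16 at 24 h in EBC-1 and by -2.73 and -3.13 in MKN-45. CENPF, a large kinetochore protein, changed by -3.06 and -4.56 in EBC-1, and CENPE, the kinetochore motor, by -2.60 and -3.07.

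Condensin subunits and chromosome proteins fell in all 8 cases in both lines, with the lowest mean change for NCAPG and the smallest for NCAPD2. NCAPG, a subunit of condensin I, had 6.03, 5.95 and 5.85 at 24 h and 3.63, 4.36 and 4.26 at 48 h, against 10.03, 9.95 and 9.96 with DMSO in EBC-1, changes of -4.04 ± 0.14 and -5.90 ± 0.14. NCAPH, the kleisin of condensin I, changed by -3.65 and -4.0 in EBC-1 and by -3.86 and -4.31 in MKN-45. SMC4, 1 of the ATPases shared by both condensins, had 9.31, 9.29 and 9.33 at 24 h and 8.98, 9.01 and 9.12 at 48 h, against 10.67, 10.69 and 10.73 with DMSO in EBC-1, changes of -1.39 ± 0.14 and -1.66 ± 0.14. SMC2, its partner, changed by -1.59 and -2.28 in EBC-1 and by -1.60 and -1.82 in MKN-45. NCAPD2, also of condensin I, changed by -1.04 ± 0.086 and -1.68 ± 0.086 in EBC-1.

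TOP2A, the topoisomerase that untangles sister chromatids, had 7.89, 7.85 and 7.94 at 24 h and 5.35, 5.69 and 5.69 at 48 h, against 11.02, 11.01 and 11.12 with DMSO in EBC-1. TOP2A in MKN-45 had 8.27, 8.31 and 8.23 at 24 h and 6.69, 6.70 and 6.68 at 48 h, against 11.25, 11.32 and 11.38 with DMSO. The 3 groups of each line were apart from each other, with changes from DMSO of -3.15 ± 0.078 and -5.47 ± 0.078 in EBC-1 and -3.05 ± 0.078 and -4.63 ± 0.078 in MKN-45. MKI67, which coats mitotic chromosomes and encodes the proliferation marker Ki-67, had 6.36, 6.14 and 6.06 at 24 h and 4.02, 3.82 and 4.32 at 48 h, against 9.89, 9.81 and 9.88 with DMSO in EBC-1, changes of -3.68 ± 0.14 and -5.81 ± 0.14. NCAPG2, of condensin II, changed by -2.55 and -2.92 in EBC-1 and by -2.38 and -2.03 in MKN-45.

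The 9 genes of spindle assembly and cytokinesis all fell in both lines, by between -1.82 for ECT2 at 24 h and -5.98 for DLGAP5 at 48 h, both in EBC-1. DLGAP5, a spindle protein also called HURP, had 4.88, 4.75 and 4.76 at 24 h and 3.19, 3.24 and 2.96 at 48 h, against 9.15, 9.08 and 9.10 with DMSO in EBC-1, changes of -4.31 ± 0.11 and -5.98 ± 0.11. In MKN-45 it changed by -3.67 ± 0.11 and -5.37 ± 0.11. ECT2, the exchange factor that starts the contractile ring, moved least, at 8.59, 8.44 and 8.53 at 24 h and 8.27, 8.36 and 8.24 at 48 h, against 10.30, 10.32 and 10.41 with DMSO in EBC-1, changes of -1.82 and -2.06. TPX2, an activator of AURKA, changed by -3.12 and -4.11 in EBC-1, and PRC1, which bundles midzone microtubules, by -2.88 and -3.69. ANLN, or anillin, and CEP55, a midbody protein, changed by -5.07 and -4.69 at 48 h in EBC-1 and by -4.45 and -5.32 in MKN-45. The spindle proteins ASPM, HMMR and NUSAP1 changed by -5.26, -5.10 and -3.71 at 48 h in EBC-1.

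Of the transcription factors that act late in the cycle, FOXM1 had 4.29, 4.45 and 4.28 at 24 h and 3.95, 4.39 and 4.12 at 48 h, against 7.76, 7.84 and 7.70 with DMSO in MKN-45, changes of -3.42 ± 0.14 and -3.61 ± 0.14. In EBC-1 it changed by -2.48 ± 0.14 and -2.96 ± 0.14. MYBL2, or B-MYB, had 6.19, 5.53 and 5.77 at 24 h and 5.93, 5.90 and 5.76 at 48 h, against 7.10, 7.06 and 6.96 with DMSO in EBC-1 and 5.42, 5.40 and 5.35 at 24 h and 5.45, 5.39 and 5.46 at 48 h, against 7.93, 7.90 and 7.68 with DMSO in MKN-45. Neither line overlapped with its DMSO arrays, and the changes were -1.21 ± 0.13 and -1.18 ± 0.13 in EBC-1 and -2.45 ± 0.13 and -2.41 ± 0.13 in MKN-45. Between 48 h and 24 h MYBL2 differed by 0.031 ± 0.13 in EBC-1 and 0.039 ± 0.13 in MKN-45, not called in either.

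**Figure D2:**
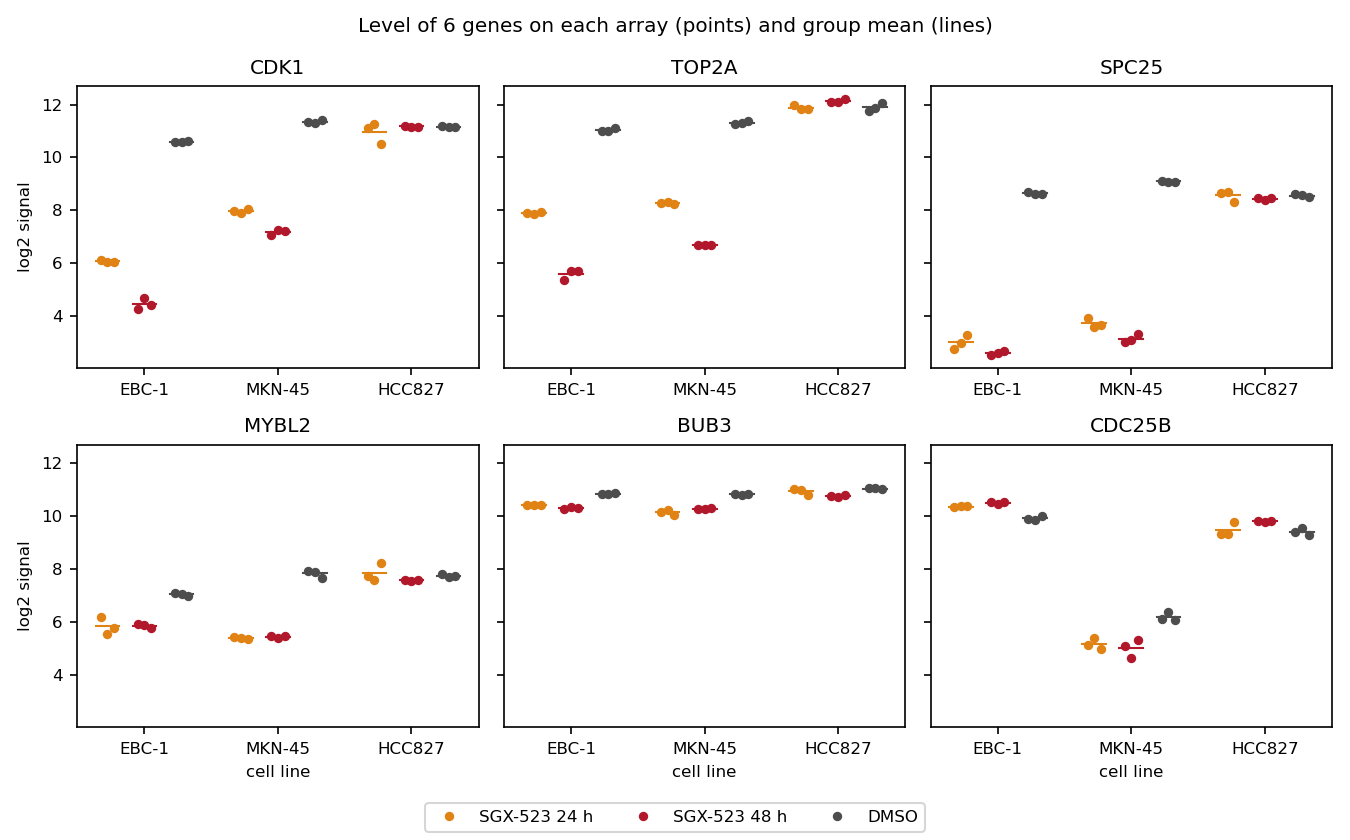
Log2 signal (vertical axis) of CDK1, TOP2A, SPC25, MYBL2, BUB3 and CDC25B on each of the 27 arrays (points) with the mean of each group of 3 (lines), by cell line, with SGX-523 24 h, SGX-523 48 h and DMSO from left to right. In EBC-1 and MKN-45, CDK1 and TOP2A step down at 24 h and again at 48 h, SPC25 is near its lowest already at 24 h, BUB3 moves by under 1 unit, and CDC25B is higher than DMSO in EBC-1 and lower in MKN-45.

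How much further the genes fell between 24 h and 48 h does not use the DMSO values, but those arrays enter the shared estimate of spread. The labels give no DMSO time, so time in culture and time with SGX-523 cannot be told apart here. In EBC-1, 40 of 59 genes were lower at 48 h than at 24 h and none was higher, where 6.08% of all genes were lower and 4.99% higher. In MKN-45, 34 were lower and 1, NCAPG2, was higher, where 9.34% of all genes were lower and 14.9% higher. The median log2 difference, 48 h minus 24 h, was -0.64 in EBC-1 and -0.52 in MKN-45, beside 0.0084 and 0.028 for all genes. Of the 59 genes, 30 were lower in both lines, which is 75% of the 40 in EBC-1 and 88.2% of the 34 in MKN-45. Of the 12327 other tested genes, 240 were lower in both, 33.7% of 713 in EBC-1 and 21.4% of 1123 in MKN-45. A far smaller part of these genes than of the 59 was lower in each line, so the percentages of the sets are not directly comparable. Whether either overlap exceeds what these counts give was not tested.

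TOP2A, MKI67 and BIRC5 had the largest further falls in EBC-1, of -2.32 ± 0.078, -2.14 ± 0.14 and -2.0 ± 0.14. In MKN-45 those were DLGAP5, CCNB2 and TOP2A, with -1.70 ± 0.11, -1.64 ± 0.062 and -1.58 ± 0.078, and BIRC5 followed with -1.55 ± 0.14. CCNB2 had 6.12, 6.03 and 6.18 at 48 h in EBC-1, against 7.84, 7.93 and 7.92 at 24 h, and 5.97, 6.09 and 5.84 at 48 h in MKN-45, against 7.64, 7.65 and 7.53 at 24 h. No array of the later time reached the earlier one in either line. By role, 8 of 9 genes of spindle assembly and cytokinesis fell further in each line, and in the checkpoint group 3 of 5 did in EBC-1 and 1 of 5, BUB1, in MKN-45. CDC20 and UBE2C fell further in both lines.

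In 15 genes neither line was called between the times: CDC25B, PLK1, PLK4, BUB3, MAD2L1, AURKB, INCENP, SGO1, CENPI, KNL1, SKA3, NCAPH, SMC4, ECT2 and MYBL2. Their differences ran from -0.45 for NCAPH in MKN-45 up to 0.47 ± 0.16 for CENPI in EBC-1 (adjusted p = 0.0594). CENPM and INCENP had the next highest values in EBC-1, 0.22 ± 0.12 and 0.17 ± 0.14, and PLK4 and BUB3 had 0.27 ± 0.24 and 0.13 ± 0.049 in MKN-45, none of them called. NCAPG2 had 6.93, 6.67 and 7.02 at 48 h in MKN-45, against 6.52, 6.53 and 6.53 at 24 h, a rise of 0.35 ± 0.11 that was no longer called when any of 4 of these 6 arrays was left out (adjusted p between 0.050 and 0.114). Another 10 genes were called lower at 48 h in EBC-1 alone and 4 (CDC25C, CDCA8, CENPM and NDC80) in MKN-45 alone, which does not by itself show that the lines differ. The lower call of NDC80 in MKN-45 was also lost when any of 4 of these arrays was left out (adjusted p between 0.0750 and 0.138) and with arrays centred on external controls (adjusted p = 0.0753), and that of ZWINT without 24 h replicate 3 or 48 h replicate 1 (adjusted p = 0.149 and 0.112), with that centring (0.359) and with the mean over its probe sets (0.812). In EBC-1 the lower calls of CDC20, CENPE, FOXM1, NCAPG2, NUF2, PBK, SPC25 and ZWINT were each lost without at least 1 of the 6 arrays of the comparison (adjusted p between 0.0515 and 0.254). Calls were also gained: with 1 array left out, up to 46 genes were called lower in EBC-1 and up to 42 in MKN-45. All 27 arrays, the HCC827 array that stood apart among them, enter the shared estimate of spread. A gene not called here may still have fallen further.

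Low signal can limit how far a further fall is seen, and its part in these differences was not tested. At 24 h, 13 genes in EBC-1 and 8 in MKN-45 had all 3 arrays under the array median. At 48 h it was 23 and 20, against 1 and 0 with DMSO. Of the 13 in EBC-1, 8 were called lower at 48 h, and of the other 46, 32 were. Of the 8 in MKN-45, 1 was, and of the other 51, 33 were. The median difference was -0.47 for the dim genes and -0.71 for the others in EBC-1, and -0.27 and -0.61 in MKN-45. Genes with a match of the CHR letters had a median of -0.67 in EBC-1 and -0.62 in MKN-45 (38 genes). Those without a match had -0.51 and -0.45 (11 genes), differences given as a description only.

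**Figure D3:**
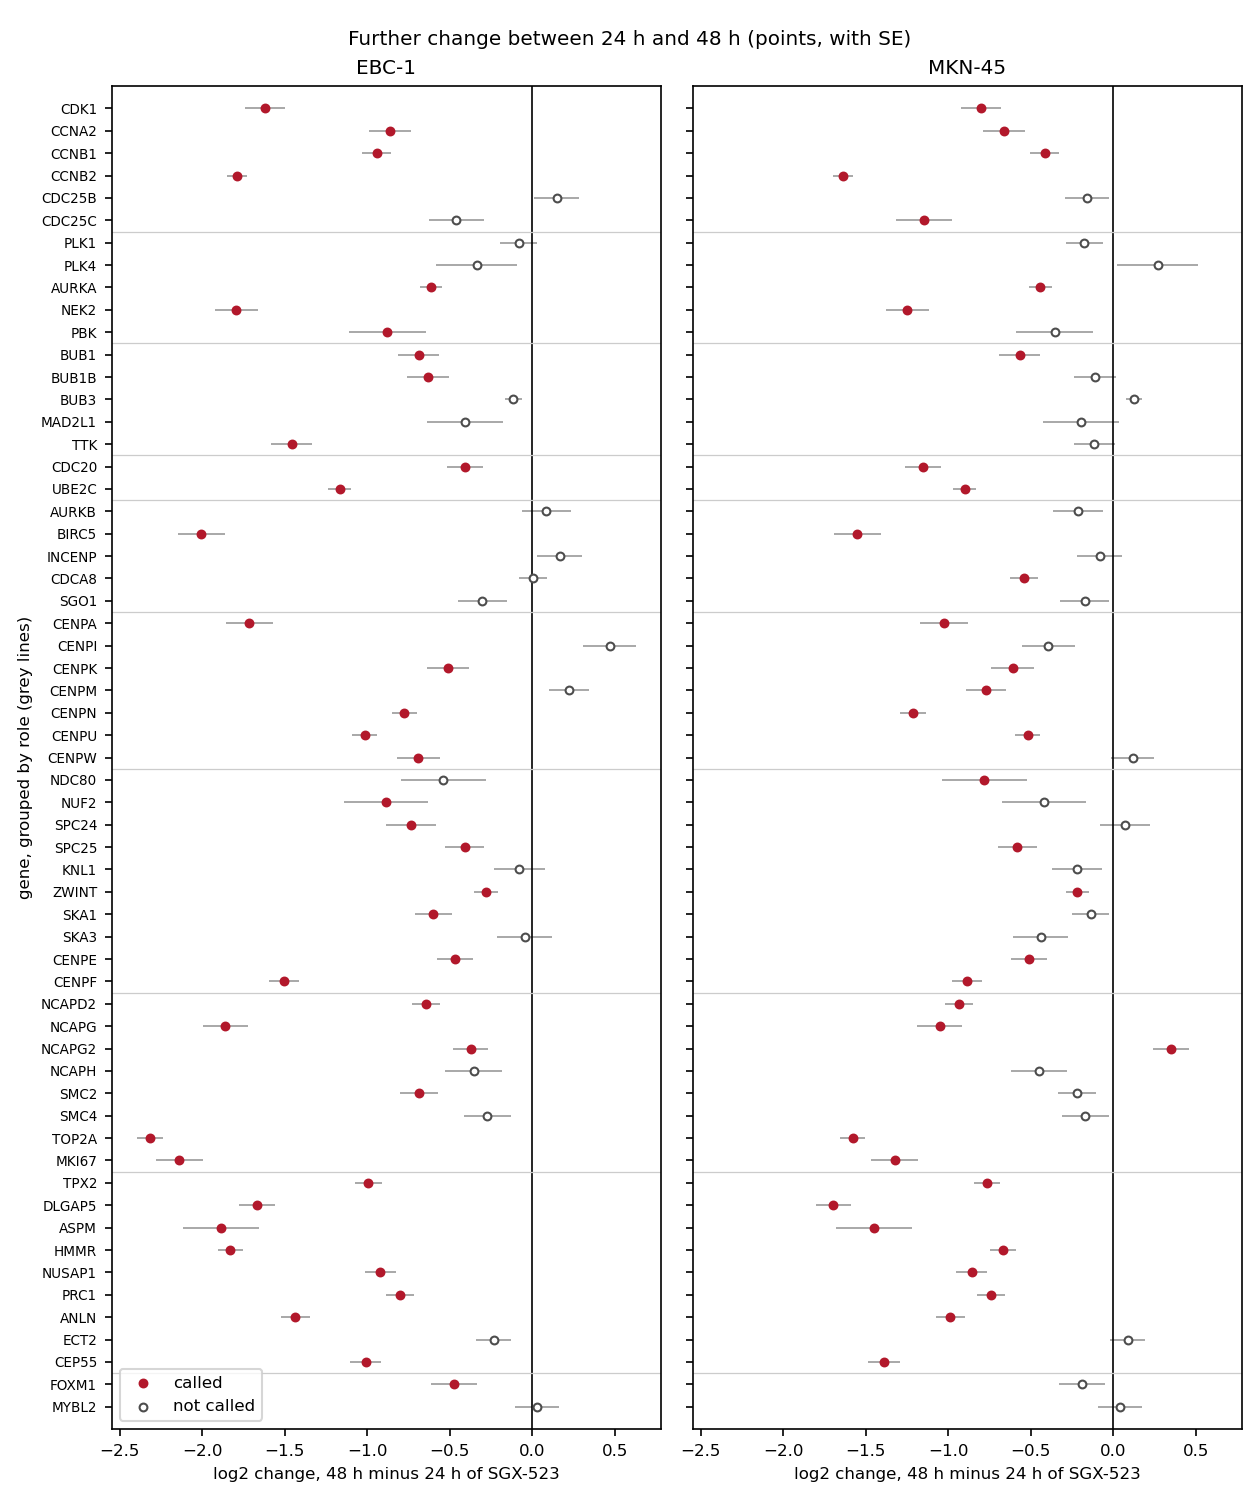
Log2 difference of each of the 59 genes between 48 h and 24 h of SGX-523 (horizontal axis, points with SE, 3 arrays a group) in EBC-1 (left) and MKN-45 (right), genes grouped by role; filled points passed the test and open points did not. Most filled points lie left of 0 in both lines, from -2.32 for TOP2A in EBC-1, and NCAPG2 in MKN-45 is the filled point right of 0.

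The responses of the MET-dependent lines were set against each other by the difference of their log2 changes, EBC-1 minus MKN-45. At 24 h, 15 genes had a lower value in EBC-1 (a deeper fall) and 10 a higher one, where 23.8% of all genes were lower and 18.4% higher. At 48 h, 23 were lower and 13 higher, where 29.4% and 19.6% of all genes were. The count at 24 h is near the share of all genes in both directions. In the lower direction the values of CDK1, TTK and PLK4 at 48 h were the lowest, with differences of -1.97 ± 0.17, -1.95 ± 0.18 and -1.90 ± 0.34 (adjusted p = 6.45e-10, 1.41e-09 and 5.59e-05). At 24 h the lowest were PLK4, BUB1 and CDK1, with -1.30 ± 0.34, -1.20 ± 0.17 and -1.15 ± 0.17. Signals of these genes were often dim in treated EBC-1 cells, and the part of this in the differences was not tested. All 3 EBC-1 arrays at 48 h were under the array median for CDK1, TTK and PLK4. At 24 h all 3 were for BUB1 and 2 of 3 for PLK4. In MKN-45 no treated array of these genes was under it, apart from 1 of TTK at 48 h.

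TTK had 5.02, 4.95 and 5.13 at 24 h and 3.88, 3.44 and 3.41 at 48 h, against 8.91, 8.82 and 8.85 with DMSO in EBC-1. MKN-45 values were 5.25, 5.16 and 5.47 at 24 h and 4.91, 5.23 and 5.40 at 48 h, against 8.49, 8.50 and 8.54 with DMSO. At 24 h the lines stood within 1 log2 unit of each other, and at 48 h the EBC-1 arrays lay below all other arrays of either line. PLK4 had 4.29, 4.89 and 5.25 at 24 h and 4.17, 4.99 and 4.27 at 48 h, against 7.74, 7.59 and 7.79 with DMSO in EBC-1 and 6.32, 6.52 and 6.45 at 24 h and 6.71, 6.73 and 6.66 at 48 h, against 8.02, 7.99 and 8.08 with DMSO in MKN-45, with wider replicate spread in treated EBC-1 cells. HMMR, CENPW and BUB1B followed at 48 h with -1.74 ± 0.11, -1.65 ± 0.18 and -1.51 ± 0.18.

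In the other direction NDC80 differed most, by 1.95 ± 0.36 at 24 h and 2.19 ± 0.36 at 48 h (adjusted p = 0.000107 and 1.95e-05). It had 7.16, 7.11 and 7.37 at 24 h and 6.34, 6.83 and 6.85 at 48 h, against 9.37, 9.26 and 9.36 with DMSO in EBC-1. MKN-45 arrays gave 5.31, 4.91 and 5.56 at 24 h and 4.18, 4.88 and 4.38 at 48 h, against 9.34, 9.28 and 9.36 with DMSO. With DMSO the lines differed by 0.0033 ± 0.26, and after SGX-523 every EBC-1 array was above every MKN-45 array. CDC25B differed by 1.46 ± 0.19 and 1.76 ± 0.19, MYBL2 by 1.24 ± 0.19 and 1.23 ± 0.19, and AURKB by 1.02 ± 0.21 and 1.32 ± 0.21. AURKB had 5.57, 5.79 and 5.18 at 24 h and 5.58, 5.67 and 5.54 at 48 h, against 7.52, 7.51 and 7.56 with DMSO in EBC-1 and 5.51, 5.82 and 6.0 at 24 h and 5.46, 5.97 and 5.26 at 48 h, against 8.83, 8.85 and 8.76 with DMSO in MKN-45. Its treated levels overlapped between the lines while with DMSO they differed by -1.28 ± 0.15, EBC-1 minus MKN-45, and FOXM1 differed by 0.94 ± 0.20 and 0.66 ± 0.20.

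For CCNA2, SPC25 and NUSAP1 no difference between the lines was called at either time. At 48 h the values were -0.21 ± 0.18, -0.096 ± 0.17 and -0.21 ± 0.13, which bounds but does not exclude a difference. All treated SPC25 arrays of both lines were under the array median, where low signal can hide a difference. The change from 24 h to 48 h itself was lower in EBC-1 than in MKN-45 for 16 genes and higher for 5, where 9.44% of all genes were lower and 5.7% higher. TTK (-1.34 ± 0.18) and HMMR (-1.16 ± 0.11) led the lower direction and CENPM (0.99 ± 0.17) the higher. These counts were 25 and 8 when the HCC827 array that stood apart was left out, which enters the shared estimate of spread, 7 and 2 where each gene was the mean over its probe sets, and 26 and 8 with array weights. With DMSO alone, 25 of the 59 genes were lower and 16 higher in EBC-1 than in MKN-45, beside 34% and 33.6% of all genes.

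**Figure D4:**
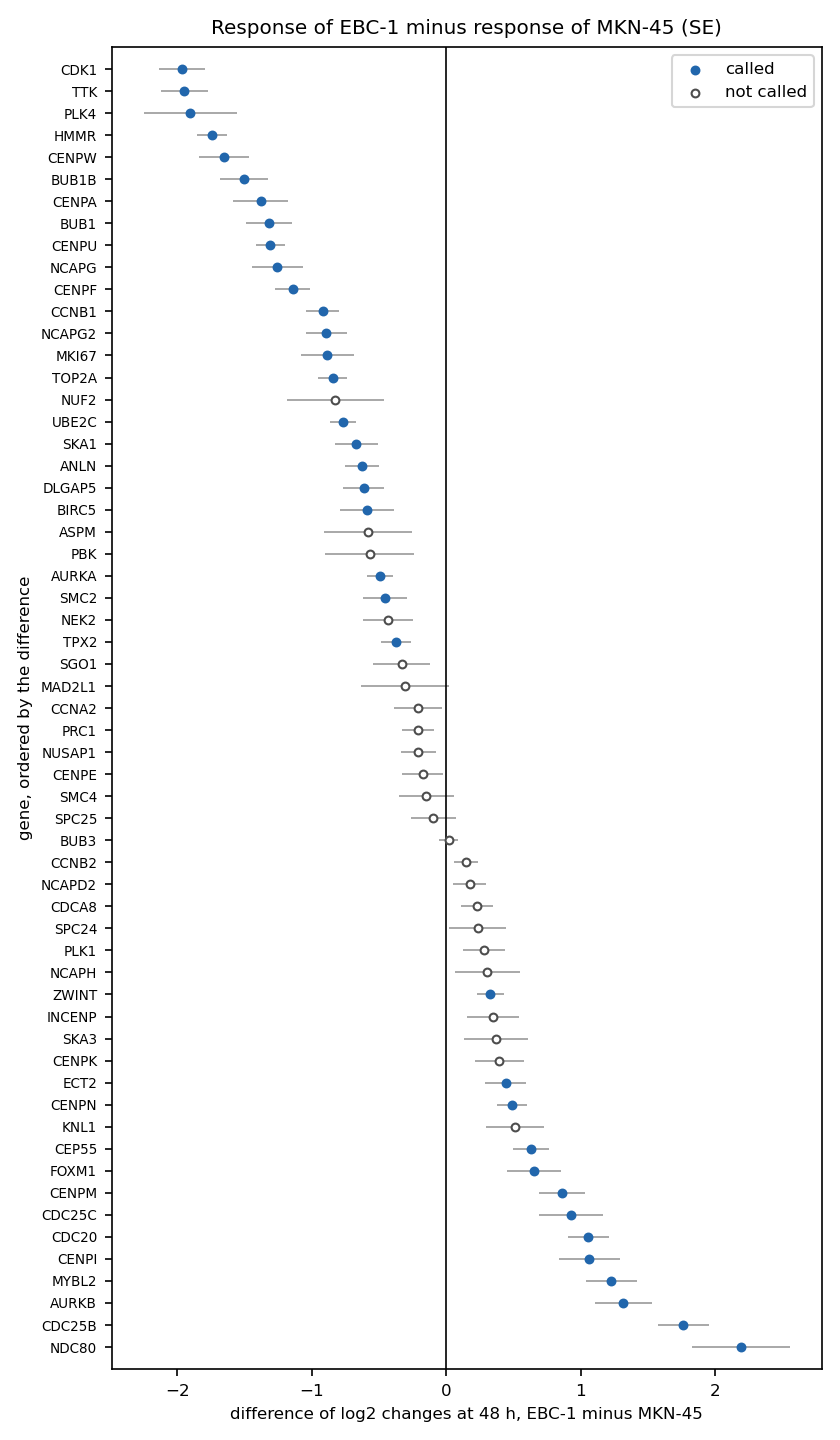
Difference of the log2 changes at 48 h, EBC-1 minus MKN-45 (horizontal axis, points with SE), for the 59 genes ordered from lowest to highest; filled points passed the test. CDK1, TTK and PLK4 lie lowest, at -1.97, -1.95 and -1.90, and NDC80 lies highest at 2.19.

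In HCC827 the same genes stayed close to DMSO. At 24 h their log2 changes ran from -0.62 to 0.18 and none was called. The lowest were ASPM (-0.62 ± 0.23), NDC80 (-0.61 ± 0.26) and PLK4 (-0.59 ± 0.24). NDC80 had 9.04, 9.04 and 7.51 at 24 h and 9.08, 9.14 and 9.06 at 48 h, against 9.09, 9.15 and 9.18 with DMSO. In all 3 genes replicate 3 at 24 h, the array that stood apart, was more than 1 log2 unit below every other HCC827 array. Without that array the median change was -0.030 and again none was called. Without replicate 1 or replicate 2 of that group, 10 and 12 genes were called lower.

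At 48 h, BUB3, CDC20, CDCA8, CENPN, ZWINT, SKA1, SKA3 and FOXM1 fell and CCNB2, CDC25B, TOP2A and NUSAP1 rose, where 10.7% of all genes fell and 11.6% rose. More of the 59 genes lay wholly below DMSO (29) than were called lower (8). SKA3 had 7.84, 7.84 and 7.14 at 24 h and 7.33, 7.36 and 7.29 at 48 h, against 7.95, 8.0 and 7.92 with DMSO, a change of -0.63 ± 0.17 at 48 h (adjusted p = 0.00745). ZWINT had 11.39, 11.44 and 11.04 at 24 h and 11.06, 11.03 and 11.14 at 48 h, against 11.47, 11.46 and 11.45 with DMSO, a change of -0.39 ± 0.071 (adjusted p = 0.000288). CCNB2 had 10.11, 10.08 and 10.05 at 24 h and 10.35, 10.37 and 10.34 at 48 h, against 10.10, 10.10 and 10.06 with DMSO, a change of 0.27 ± 0.062 (adjusted p = 0.00239). For these 3 genes the 48 h arrays did not overlap with DMSO. The other changes lay between -0.46 ± 0.11 for SKA1 and 0.39 ± 0.13 for CDC25B. With arrays centred on external controls 1 gene was called lower. Without DMSO replicate 1 or 2 or 48 h replicate 3, 5 genes were called lower, and 2 were called higher without DMSO replicate 1 or 48 h replicate 3. Between 48 h and 24 h, 5 genes were lower and 4 higher, where 10.7% and 15.8% of all genes were, and without the array that stood apart 8 were lower and 6 higher. The lower count went down to 3 without 48 h replicate 2, and the higher count to 2 without 48 h replicate 1 or 2, to 1 without 48 h replicate 3 and up to 11 and 10 without 24 h replicate 1 or 2.

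The difference between the lines was tested directly. At 24 h the log2 change was lower in EBC-1 than in HCC827 for 57 genes and lower in MKN-45 than in HCC827 for 58, with none higher in either. Among all genes, 23.4% were lower and 28.2% higher in EBC-1, and 22.3% and 30.4% in MKN-45. At 48 h it was lower for 56 genes in EBC-1 and for all 59 in MKN-45, where 24.2% and 21.5% of all genes were lower and 24.5% and 29.6% higher. The genes not called lower in EBC-1 were CDC25B and INCENP at 24 h and CDC25B, INCENP and CENPI at 48 h. For CDC25B the differences were 0.38 ± 0.19 at 24 h and 0.20 ± 0.19 at 48 h, for INCENP -0.20 ± 0.19 and -0.26 ± 0.19, and for CENPI -0.51 ± 0.23 at 48 h. In MKN-45 the gene not called at 24 h was INCENP (-0.30 ± 0.19).

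Other mitotic genes, 95 in 10 lists set by role with earlier results of these data known, moved less uniformly, and 93 of them were tested. In EBC-1, 62 fell and 15 rose at 24 h, with a median log2 change of -0.71, and 63 fell and 12 rose at 48 h, with -0.90. Among all genes, 28.1% fell and 31.2% rose there at 24 h, and 28.9% fell and 32.8% rose at 48 h. In MKN-45, 58 fell and 14 rose at 24 h (-0.70), and 57 fell and 15 rose at 48 h (-0.62). Of all genes, 26.9% fell and 33.4% rose there at 24 h, and 26.2% fell and 36.4% rose at 48 h. Other genes of the spindle and centrosome came closest to the 59: 16 of 18 fell and 2 rose in EBC-1 at 48 h (median -2.54), and 16 fell and 1 rose in MKN-45 (-2.01). In that list DEPDC1 changed by -3.93 in EBC-1 and -4.25 in MKN-45 at 48 h, and PCNT, the scaffold of the centrosome matrix, by 0.28 and 0.09. Of 6 genes that load CENPA, 6 fell in EBC-1 and 4 in MKN-45 at 48 h. By the mean over both times and both MET-dependent lines, HJURP, the chaperone of CENPA, fell most. At 48 h it changed by -3.96 in EBC-1 and -4.12 in MKN-45. RBBP4, a histone-binding protein, changed least by that mean, with -0.38 and 0.094 at 48 h.

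The related lists also hold other subunits and regulators of the same machines. Their counts at 48 h stand beside 28.9% of all genes lower and 32.8% higher in EBC-1, and 26.2% and 36.4% in MKN-45. The 4 subunits of the MIS12 complex, which joins the inner and outer kinetochore, fell in 2 cases and rose in 1 in EBC-1 at 48 h, and fell in 1 and rose in 1 in MKN-45. Their log2 changes were -0.26 for MIS12, -1.22 for DSN1, -0.52 for NSL1 and 0.30 for PMF1 in EBC-1. In MKN-45 these were 0.30, -0.84, 0.022 and -0.12 in the same order. Of 14 genes of the anaphase-promoting complex core and its regulators, 6 fell and 2 rose in EBC-1 at 48 h (median -0.10) and 5 fell and 3 rose in MKN-45 (-0.062), with FBXO5, an inhibitor of the complex, at -3.41 and -2.44 and ANAPC5, a core subunit, at -0.062 and 0.069. Of 15 cohesin genes, 8 fell and 3 rose in EBC-1 at 48 h and 7 fell and 5 rose in MKN-45. ESCO2, the acetyltransferase that makes cohesin cohesive in S phase, changed by -4.36 in EBC-1 and -4.26 in MKN-45, and STAG1, a cohesin subunit, by 0.22 and -0.021. The condensin II subunits NCAPD3 and NCAPH2 changed by -2.23 and -1.06 in EBC-1 and by -1.49 and -0.83 in MKN-45.

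Of 7 partners of the checkpoint, 5 fell in each MET-dependent line at 48 h and 1 rose in MKN-45, TRIP13, the remodeller of MAD2, by the most (-3.88 in EBC-1 and -3.28 in MKN-45). Of 9 other inner kinetochore genes 6 fell and 1 rose in each line, and CENPH changed by -2.80 and -3.05. Of 10 other regulators of CDK1, 7 fell and 1 rose in EBC-1 and 8 fell and 1 rose in MKN-45, with CDC25A at -2.92 and -2.26. Of 8 genes of the MuvB core and its repressor partners, 5 fell and 2 rose in EBC-1 and 3 fell and 2 rose in MKN-45, with TFDP1 at -1.32 and -1.18. The shares of all genes at 48 h were 28.9% lower and 32.8% higher in EBC-1, and 26.2% and 36.4% in MKN-45. In HCC827, 13 of the 93 fell and 5 rose at 48 h, where 10.7% of all genes fell and 11.6% rose.

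**Figure D5:**
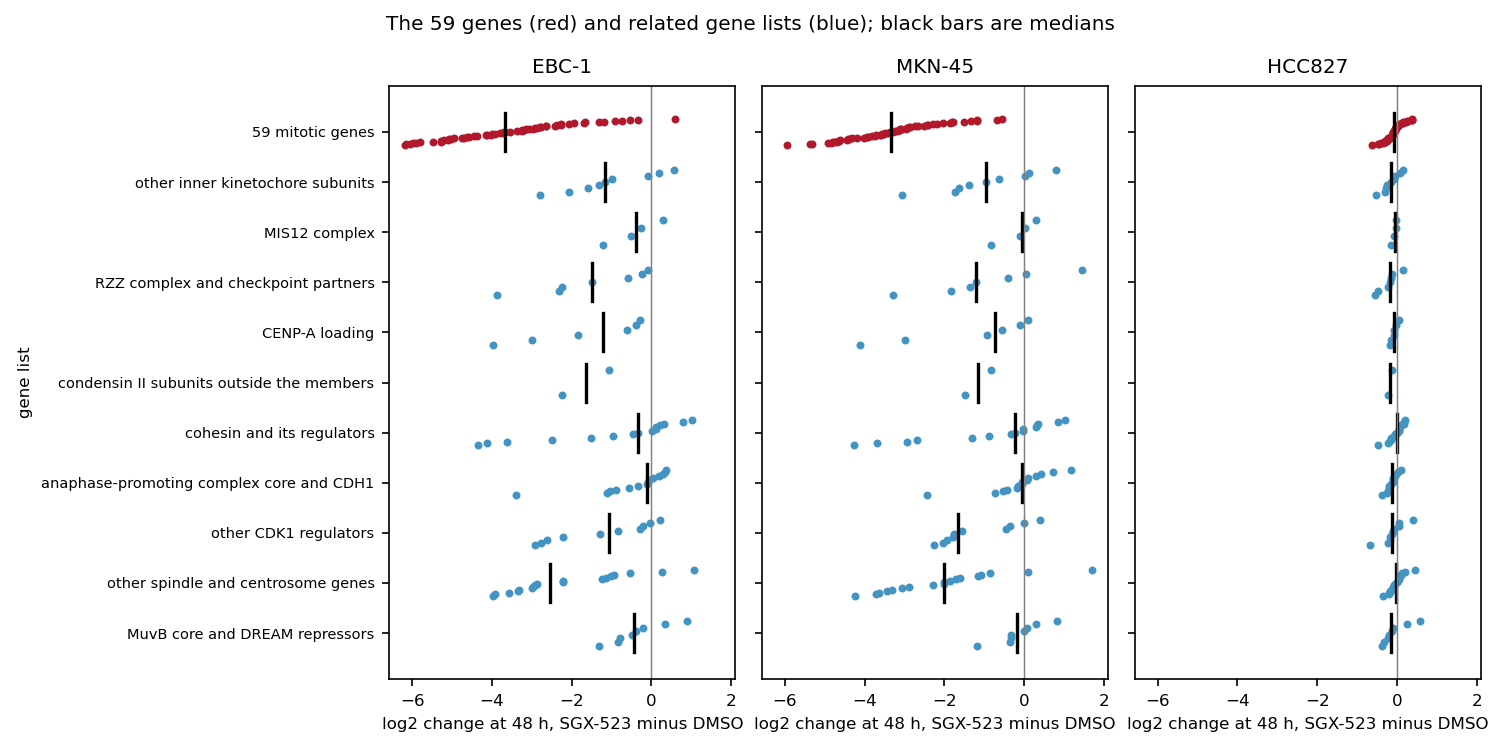
Log2 change at 48 h, SGX-523 minus DMSO (horizontal axis), of each gene (points) in the 59 mitotic genes (red) and in 10 related lists (blue) in EBC-1, MKN-45 and HCC827; black bars are the medians of the lists. The 59 genes lie furthest to the left in EBC-1 and MKN-45, with medians of -3.66 and -3.33, the anaphase-promoting complex has medians of -0.10 and -0.062, and in HCC827 the median of each list lies near 0.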

How the data were processed

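Gene expression was measured on 27 1-colour Affymetrix arrays from total RNA, 3 for each of 9 groups taken from the sample titles. The deposited values are log2 signals per probe set that the authors had already normalized. The submitters' processing notes name MAS5, the version and normalization details are not given in the sources used here, and the median of the HCC827 arrays differs from that of the other lines. Of 49395 probe sets, 44988 carried 1 gene symbol, and 27359 of these were kept, having a value at or over the array median on at least 3 of the 27 arrays. The brightest kept probe set stood for its gene. limma 3.58.1 in R 4.3.3 fitted 9 group means for 12386 genes with an intensity trend and 18 residual degrees of freedom, and p-values were adjusted by Benjamini-Hochberg over all genes at 0.05. The fit was tested on simulated data.

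The comparisons were each treatment time against DMSO, 48 h against 24 h, and differences of these between lines. Each is repeated under 10 other settings and with each array left out. Members and lists were chosen with earlier results of these data known. Array values are printed for genes that were the brightest, the most changed or the least changed of their role, that moved in HCC827, or that led a comparison between times or lines. Of related lists, the gene that fell most and the one that changed least are named, with all genes of lists of up to 4. Both are taken by the mean over the 4 comparisons of EBC-1 and MKN-45 with DMSO. The number of arrays limits the precision. Promoter windows come from RefSeq, GRCh38.p14, scanned with Python 3.11.15.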

Additional observations from a re-analysis of the deposited data

Results flagged for a closer look

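Each value in this paragraph is a difference between lines that passed the test of the difference itself (limma, adjusted p under 0.05). At 24 h the responses of EBC-1 and MKN-45 differed for 25 of the 59 genes (15 lower and 10 higher in EBC-1, where 23.8% and 18.4% of all genes were), so the count is near the share of all genes. At 48 h they differed for 36 (23 lower and 13 higher, where 29.4% and 19.6% of all genes were). The change between 24 h and 48 h differed for 21 (16 lower and 5 higher, where 9.44% and 5.7% of all genes were), a count that ran from 7 lower and 2 higher with the mean over probe sets to 26 and 8 with array weights. EBC-1 differed from HCC827 for 57 genes at 24 h and 56 at 48 h, and MKN-45 differed from HCC827 for 58 and 59, in all cases lower, where 23.4% and 24.2% of all genes were lower in EBC-1 and 22.3% and 21.5% in MKN-45. In EBC-1 minus MKN-45, the genes with the lowest differences at 24 h were PLK4 at -1.30, BUB1 at -1.20 and CDK1 at -1.15, and those with the highest were NDC80 at 1.95, CDC25B at 1.46 and MYBL2 at 1.24. At 48 h the lowest were CDK1 at -1.97, TTK at -1.95 and PLK4 at -1.90, and the highest were NDC80 at 2.19, CDC25B at 1.76 and AURKB at 1.32. The 3 EBC-1 arrays at 48 h were under the array median for CDK1, TTK and PLK4. Groups of 3 arrays were not tested for a single array far from the others.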

How the results depend on the processing

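The 685 calls of the 59 genes over all comparisons gave 24970 recomputed values over 37 alternatives, of which 24723 kept their direction and call, 243 kept the direction and lost the call, and 4 changed sign, all where a gene was the mean over its probe sets: BUB3 in HCC827 at 48 h against 24 h (0.056), and CENPN (-0.21), ZWINT (-0.035) and MKI67 (0.075) in EBC-1 minus MKN-45 at 48 h. The cause was not tested. The 58 and 59 falls in EBC-1 and MKN-45 against DMSO kept their counts, apart from 57 in EBC-1 at 48 h without any of 3 arrays and from 55 and 56 under the stricter filter, which tests fewer genes.

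With quantile normalization the median of the 59 genes was -2.85 and -3.54 in EBC-1 at 24 h and 48 h, and 1 gene was higher there at 48 h against 24 h. With arrays centred on their medians 2 were higher at 48 h against 24 h in MKN-45. Centred on external controls, the medians were -3.25 and -4.05 in EBC-1, with 0 genes higher, and -3.03 and -3.60 in MKN-45. Against HCC827 they were -3.13 and -4.16 for EBC-1 and -2.90 and -3.48 for MKN-45, and between DMSO groups -0.15. In HCC827 that centring left 1 fall at 48 h, and 0 lower and 8 higher at 48 h against 24 h, and the EBC-1 minus MKN-45 difference of that change was higher for 2 genes. The stricter filter gave -3.36 for MKN-45 minus HCC827 at 48 h. In separate fits per line, which give no values between lines, 2 genes in EBC-1 and 3 in MKN-45 were higher at 48 h against 24 h, 4 fell in HCC827 at 48 h and 2 were lower there at 48 h against 24 h. With array weights, 15 fell and 8 rose in HCC827 at 48 h, 8 were lower and 7 higher there at 48 h against 24 h, 2 genes each in EBC-1 and MKN-45 were higher at 48 h against 24 h, 1 was higher in EBC-1 minus HCC827 at 24 h, and the lines' difference in that change was lower for 26 and higher for 8. With each gene as the mean over its probe sets, the medians were -2.60 and -3.20 in EBC-1, -2.63 and -3.11 in MKN-45, -2.45 and -3.07 in EBC-1 minus HCC827, and -3.00 in MKN-45 minus HCC827 at 48 h. Then 2 genes rose in HCC827 at 48 h, 8 were higher there at 48 h against 24 h, 1 was higher in EBC-1 minus HCC827 at 24 h, and 7 were lower and 2 higher in the lines' difference of change. The cause of these shifts was not tested.

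With 1 array left out, genes called at 48 h against 24 h numbered 33 to 46 lower and 0 to 1 higher in EBC-1, 32 to 42 and 0 to 2 in MKN-45, and 3 to 8 and 1 to 11 in HCC827, where the median ran from -0.055 to 0.13. Against DMSO in HCC827, 0 to 12 were lower at 24 h, with medians of -0.13 to -0.030, and 5 to 10 were lower and 2 to 5 higher at 48 h. The lines' difference in the change from 24 h was lower for 14 to 25 genes and higher for 5 to 8, with medians of -0.26 to -0.12, and EBC-1 minus HCC827 at 24 h was higher for 0 to 1. Medians ran from -3.04 to -2.90 in EBC-1 at 24 h and from -3.28 to -3.13 in MKN-45 minus HCC827 at 48 h. Replicate numbers gave no strong pairing of the arrays: 5 of 27 pairs of equal number had correlated residuals over 0.1, the highest 0.159. Arrays of unequal number were not compared, so a weak pairing is not excluded. With the replicate number as a block 40 genes were lower in EBC-1 at 48 h against 24 h, as without it.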
